A study of Homo sapiens with 6 samples.

Results

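The 10 genes described here belong to the integrated stress response, and were chosen by name: ATF4, DDIT3, ASNS, TRIB3, CHAC1, PPP1R15A, HSPA5, XBP1, DDIT4 and SESN2. All 10 were found among the 28307 gene symbols of the expression tables, and all 10 were among the 13300 genes that entered the test. They were measured by polyA RNA-seq in SW480, an established human colon adenocarcinoma line, after lentiviral transduction with a pLENTI CMV construct for Clover (n = 3) or for Z18trunc (n = 3). Clover is a fluorescent protein and served as the control, and Z18trunc is ZC3H18, a factor of nuclear RNA surveillance, in a shortened form. Both groups kept their own ZC3H18 genes, carried a construct driven by the CMV promoter and were held under puromycin selection, and the study's methods describe lines made in biological triplicate. No stress-inducing agent is named in the labels, but whether cultures kept in puromycin were under stress was not tested.

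The integrated stress response starts from kinases that phosphorylate the translation factor eIF2 when amino acids run short, unfolded protein builds up in the endoplasmic reticulum (ER), heme is lacking or double-stranded RNA is present. Most translation then slows, while the mRNA of the transcription factor ATF4 is translated more, and ATF4 drives genes for amino acid supply, redox balance and, when the stress lasts, cell death. The unfolded protein response shares its PERK arm with this pathway and adds the IRE1 arm, which acts by splicing XBP1 mRNA, and the ATF6 arm, in which ATF6 itself becomes the transcription factor, and both raise ER chaperones. Because ATF4 is controlled largely at translation and XBP1 by an unconventional splice, the mRNA levels given here do not measure the activity of either protein.

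The promoters of 4 members held a known element of these pathways, and the 30 bases around each site are shown because they are the sequence through which ATF4 or the ER stress factors act on such genes. The sequences come from the RefSeq promoter table of GRCh38.p14, which gives 250 bases before to 50 bases after each start and matched all 10 members. Capitals mark the fixed letters of the motif, 5′ to 3′ on the strand of the gene. ASNS (chr7:97872458-97872487, minus strand, motif from base -68) and CHAC1 (chr15:40953251-40953280, plus strand, motif from base -209, as the reverse complement) hold TGATGNAA, the core of the C/EBP-ATF composite element. HSPA5 (chr9:125241385-125241414, minus strand, motif from base -66) and XBP1 (chr22:28800597-28800626, minus strand, motif from base -52) hold the ER stress element, CCAAT and CCACG with 9 bases between them.
ASNS: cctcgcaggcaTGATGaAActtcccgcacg
CHAC1: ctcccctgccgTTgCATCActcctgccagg
HSPA5: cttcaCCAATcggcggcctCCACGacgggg
XBP1: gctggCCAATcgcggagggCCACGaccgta
Searched on both strands, the composite core lay in 1270 of 35116 promoters (3.62%) and the ER stress element in 27 (0.0769%). The shorter core TGACGTG, shared by ATF6 and XBP1, lay in 692 promoters (1.97%) and in 0 of the 10 members, which says only that these letters are not in this window. A match is a description of the letters and not a measured binding site.

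The ZC3H18 level was examined first as a check of the labels. Clover libraries averaged 57.2 ± 5.39 TPM and Z18trunc libraries 763 ± 31.2 TPM (SD, n = 3 each), a log2 difference of 3.72 (limma adjusted p = 3.2e-05). TPM (transcripts per 1000000) is scaled by gene length and library, so levels of different genes can be ordered, but it keeps no record of depth. The libraries held 18226033 to 22463310 aligned fragments. The library median of log2(TPM + 1) over the genes tested was 3.83 to 3.98 in Clover and 4.06 to 4.13 in Z18trunc, and the median difference over all genes was 0.11. For this reason the members' differences and the list medians are also given after centring every library on its own median, where the median of all genes is -0.06. Of the colon epithelium markers, KRT8 and KRT18 were abundant while KRT20, CDX1 and LGR5 were listed at 0, and the 10 markers of other cell types summed to 4.51 to 6.60 TPM, with PTPRC, PECAM1, MLANA and TYR listed at 0. As in any bulk sample, fewer cells that express a gene and less RNA per cell cannot be told apart.

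The stress response genes were well expressed in these cultures, for which no stress-inducing agent is named. ATF4 was the most abundant at 1071 TPM over the 6 libraries, ranking 134 among the genes tested, and SESN2 the least at 45.1 TPM, ranking 3377. From high to low by mean TPM the order was ATF4, ASNS, TRIB3, HSPA5, DDIT4, PPP1R15A, XBP1, DDIT3, CHAC1 and SESN2. Neighbours in this order were separated in every library, with no overlap of their ranges, only for ATF4 over ASNS, PPP1R15A over XBP1 and XBP1 over DDIT3. ASNS and TRIB3, HSPA5 and DDIT4, and DDIT4 and PPP1R15A changed places in at least 1 library. Together the 10 genes took 0.262% to 0.308% of all TPM. The plot of TPM by library shows this order and the narrow distance between the groups.

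**Figure D1:**
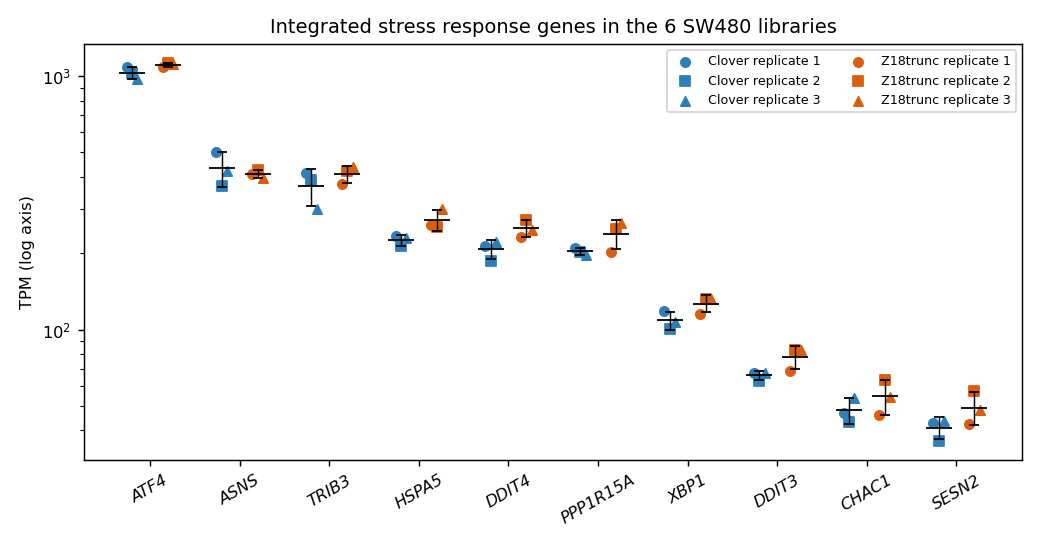
TPM on a log axis for the 10 integrated stress response genes in 3 Clover (blue) and 3 Z18trunc (orange) SW480 libraries, with the marker shape giving the replicate and black bars the mean ± SD (n = 3). The 3 Z18trunc points lie above the 3 Clover points for HSPA5, DDIT4 and DDIT3 and overlap them for the other 7 genes.

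To ask whether Z18trunc moved the stress response, each gene was compared between the groups with limma on log2(TPM + 1), over all 13300 genes. None of the members passed: 0 of 10 had an adjusted p under 0.05, with adjusted p from 0.127 to 0.792, where 2 genes (0.0150%) passed over the whole table. With an unadjusted p under 0.05, DDIT3, HSPA5 and DDIT4, 3 of the members, were higher in Z18trunc and 0 were lower, beside 25.6% of all genes higher and 2.90% lower. After quantile normalization these were HSPA5 and DDIT4, 2 of 10, beside 12.8% of genes higher and 10.9% lower, and after centring 0 of 10, beside 10.2% higher and 18.5% lower. The same 3 members had groups that did not overlap, beside 30.1% of all genes higher and 6.73% lower without overlap. The 3 members of 10 thus sit near the share of the whole table. The log2 difference lay above 0 for 9 of the 10, with 68.0% of all genes above 0, and ATF4 moved below 0 under centring. The median over the members was 0.22, or 0.18 after quantile normalization and 0.05 after centring, beside 0.11, -0.01 and -0.06 over all genes.

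**Figure D2:**
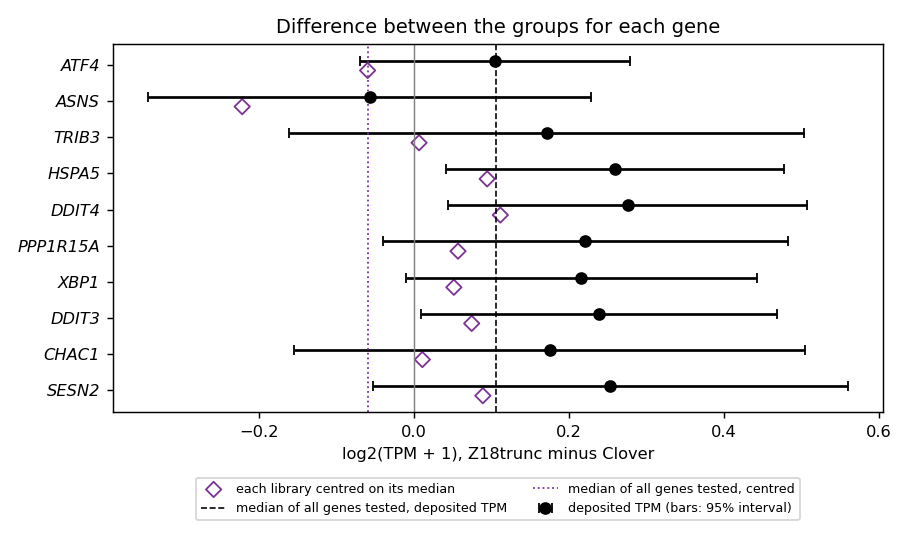
Difference between the groups in log2(TPM + 1), Z18trunc minus Clover, for each gene, with the 95% limma interval (black) and the value after centring each library on its median (purple diamonds). The intervals of HSPA5, DDIT4 and DDIT3 lie above 0, all 10 intervals hold the median of all genes (dashed, 0.11), and the centred values run from -0.22 for ASNS to 0.11 for DDIT4.

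ATF4 (hg38, chromosome 22, 39520559 to 39522686, plus strand) encodes the transcription factor on which the eIF2 kinases converge. Its level was 1092, 1031 and 975 TPM in the 3 Clover libraries and 1087, 1123 and 1118 TPM in the 3 Z18trunc libraries. The groups overlapped, since the first Clover library stood above the first Z18trunc library. The log2 difference was 0.10 (SE 0.07, limma adjusted p = 0.385) and took the other sign, at -0.06, after centring, and it was 0.06 without the third Clover library. ATF4 was also among the steadier genes between libraries of one group, with a pooled SD of 0.06 on the log2 scale, a spread at the 11.6th percentile of all genes tested.

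DDIT3 (hg38, chromosome 12, 57516588 to 57520517, minus strand) encodes CHOP, a transcription factor downstream of ATF4 that is linked to cell death under lasting ER stress. It measured 67.7, 62.8 and 67.3 TPM in Clover and 68.7, 83.3 and 82.7 TPM in Z18trunc. The groups did not overlap, although the first Z18trunc library lay close to the Clover libraries and the other two stood apart. The log2 difference was 0.24 (SE 0.10, 95% interval 0.01 to 0.47) with a limma adjusted p of 0.164, and 0.07 after centring. XBP1 (hg38, chromosome 22, 28794560 to 28800572, minus strand), the transcription factor of the IRE1 arm, measured 118, 101 and 107 TPM in Clover and 115, 133 and 132 TPM in Z18trunc. Here the groups overlapped through the same first Z18trunc library, and the log2 difference was 0.22 (limma adjusted p = 0.191), or 0.05 after centring.

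HSPA5 (hg38, chromosome 9, 125234853 to 125241343, minus strand) encodes BiP, the main ER chaperone and the usual marker of ER stress, and its promoter holds the ER stress element printed above. It measured 235, 213 and 230 TPM in Clover (mean 226 ± 11.4, SD, n = 3) and 259, 253 and 300.0 TPM in Z18trunc (mean 271 ± 25.4, SD, n = 3). All 3 Z18trunc libraries stood above all 3 Clover libraries. The log2 difference was 0.26 (SE 0.09, 95% interval 0.04 to 0.48), with a limma adjusted p of 0.128, and 0.09 after centring.

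Amino acid supply is represented by 1 member. ASNS (hg38, chromosome 7, 97851677 to 97928441, minus strand), asparagine synthetase, carries the composite element printed above and is a textbook ATF4 target. It measured 504, 369 and 423 TPM in Clover and 412, 428 and 398 TPM in Z18trunc. The Clover libraries spanned more than the Z18trunc libraries and enclosed them. The log2 difference was -0.06 (95% interval -0.34 to 0.23, limma adjusted p = 0.792), and it was 0.06 without the first Clover library. After centring it was -0.22, and ASNS was then the only member without overlap between the groups, on the lower side, beside 25.3% of all genes lower and 14.1% higher without overlap on that scale.

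SESN2 and DDIT4 restrain the growth kinase mTORC1, SESN2 as a sensor of leucine and DDIT4 (REDD1) in several stresses. DDIT4 (hg38, chromosome 10, 72273924 to 72276036, plus strand) measured 213, 187 and 221 TPM in Clover and 233, 271 and 248 TPM in Z18trunc, with no overlap. Its log2 difference was the largest of the 10 at 0.28 (SE 0.10, 95% interval 0.04 to 0.51, limma adjusted p = 0.127), and 0.11 after centring. SESN2 (hg38, chromosome 1, 28259518 to 28282491, plus strand) measured 42.8, 36.3 and 43.7 TPM in Clover and 42.5, 57.0 and 48.1 TPM in Z18trunc, and its groups overlapped. Its log2 difference was 0.25 (limma adjusted p = 0.245), or 0.09 after centring and 0.14 without the second Z18trunc library. DDIT4 also responds to hypoxia and SESN2 and DDIT4 to p53, so neither is specific to eIF2 signalling.

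TRIB3, CHAC1 and PPP1R15A act further along the response. TRIB3 (hg38, chromosome 20, 380629 to 397559, plus strand) is a pseudokinase that ATF4 and CHOP induce and that feeds back on ATF4. It measured 416, 389 and 298 TPM in Clover and 374, 423 and 437 TPM in Z18trunc (log2 difference 0.17, limma adjusted p = 0.454), with overlap. After centring its log2 difference was 0.01. The third Clover library was its lowest, the difference was 0.03 without that library and 0.27 without the first Clover library, and its pooled SD of 0.20 was at the 78th percentile of all genes. CHAC1 (hg38, chromosome 15, 40953471 to 40956512, plus strand), an enzyme that breaks down glutathione, measured 46.9, 43.0 and 53.9 TPM in Clover and 46.1, 63.4 and 54.0 TPM in Z18trunc (log2 difference 0.18, limma adjusted p = 0.441). Its log2 difference was 0.01 after centring, 0.06 without the second Z18trunc library and 0.29 without the first Z18trunc library. PPP1R15A (hg38, chromosome 19, 48872392 to 48876062, plus strand) encodes GADD34, which brings a phosphatase to eIF2 and ends the response. It measured 210, 203 and 197 TPM in Clover and 203, 250.1 and 263 TPM in Z18trunc (log2 difference 0.22, limma adjusted p = 0.236), with a log2 difference of 0.06 after centring and 0.33 without the first Z18trunc library. For each of these 3 genes the first Z18trunc library lay within the Clover range.

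The libraries of one group were not alike in these genes. The first Z18trunc library was the lowest of its group for 8 of the 10 members, and for 7 after centring. The second Clover library was the lowest of all 6 for 7 members and the third Clover library for 3, but after centring the second Clover library was the lowest of its group for 3 members and the highest for 5. The second Z18trunc library was the highest for 6 members. The 7 ATF4 targets ASNS, TRIB3, CHAC1, DDIT4, SESN2, DDIT3 and PPP1R15A summed to 1502, 1291 and 1305 TPM in Clover and 1379, 1576 and 1531 TPM in Z18trunc. These sums overlapped, with a log2 difference of 0.13 that was -0.03 after centring. Without ASNS, the most abundant of the 7, the uncentred difference was 0.21, again with overlap. For all 7 genes the difference was 0.20 without the first Clover library and 0.19 without the first Z18trunc library. In both of these cases the groups did not overlap, so the overlap rests on single libraries. Leaving out the first Z18trunc library raised the count of members at an unadjusted p under 0.05 from 3 to 6, and it was 0 without the second Clover library and 0 without the third Z18trunc library. It was 1 without the third Clover library or without the second Z18trunc library. The share of all genes at that threshold is not given for these fits, so the counts are not read as a trait of the members. With every library in turn left out, 0 members had an adjusted p under 0.05 in limma.

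**Figure D3:**
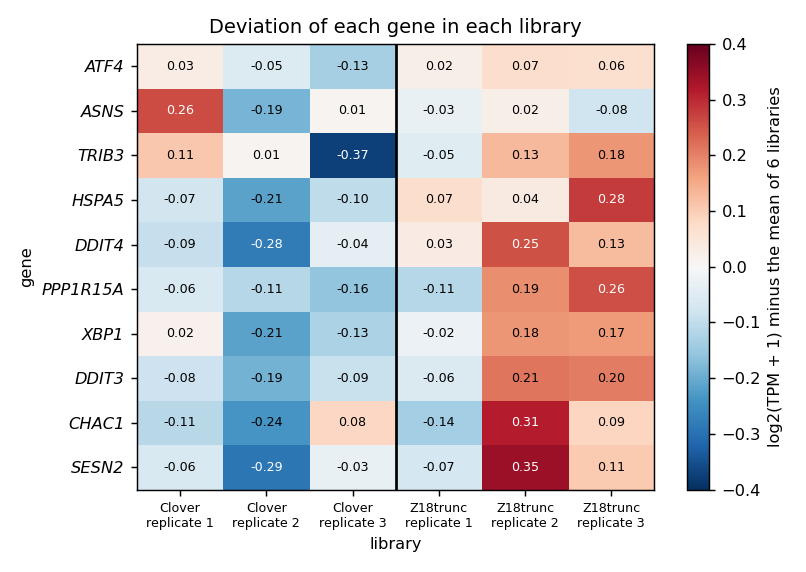
Each cell gives the log2(TPM + 1) of a gene (rows) in a library (columns) minus its mean over the 6 libraries, from blue (lower) to red (higher). The second Clover library lies below 0 for 9 of the 10 genes and the second Z18trunc library above 0 for all 10, while the first Z18trunc library runs from -0.14 to 0.07.

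How the members varied together is given as Pearson r of log2(TPM + 1) over the 6 libraries, which share the difference in library medians, and with no test. DDIT3 had r = 0.943 with PPP1R15A, 0.943 with XBP1, 0.916 with DDIT4 and 0.911 with SESN2. ASNS stood apart, with r = 0.03 with DDIT3 and 0.21 with ATF4. ATF4 was closest among the members to TRIB3 (r = 0.907), and HSPA5 to XBP1 (r = 0.822). Among 9972 genes with a mean of at least 5 TPM, those closest to ATF4 were CCDC71L (r = 0.995), TOR1AIP2 (r = 0.991) and SKIL (r = 0.989). Those closest to DDIT3 were LGALSL (r = 0.998), H2BS1 (r = 0.998) and ZDHHC9 (r = 0.997), and EIF4G3 (r = 0.998) and HIF1A (r = 0.997) were among those closest to HSPA5. With 6 libraries high values are common: 171 genes had r above 0.9 with ATF4, 462 with DDIT3 and 1287 with HSPA5.

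Around the members, the rest of the pathway was described by lists of named genes, and 0 genes of any list had a limma adjusted p under 0.05. Upstream, 8 genes for the eIF2 kinases and the eIF2 phosphatase were tested. At an unadjusted p under 0.05, 6 were higher in Z18trunc and 0 lower, beside 25.6% and 2.90% of all genes, and the median log2 difference was 0.37, or 0.21 after centring. The most abundant were PPP1CA, a catalytic subunit of the phosphatase, at 778 ± 29.1 and 747 ± 25.3 TPM (SD, n = 3), EIF2AK1, the heme-regulated kinase, at 138 ± 47.6 and 183 ± 5.91 TPM, and PPP1CC at 98.3 ± 7.32 and 125 ± 1.59 TPM, in Clover and Z18trunc. EIF2AK1 stood at 83.1 TPM in the second Clover library against 165 and 166 TPM in the others. It was not among the 6 (limma unadjusted p = 0.114), and neither was PPP1CA (limma unadjusted p = 0.437). The other kinases EIF2AK2, EIF2AK3 and EIF2AK4, named after their values were seen, were among the 6. Their log2 differences were 0.38, 0.40 and 0.50, or 0.22, 0.24 and 0.33 after centring, with limma adjusted p of 0.0823, 0.0823 and 0.0773. For the eIF2 and eIF2B subunits, the target of these kinases and its exchange factor, 2 of 8 were higher at that threshold and the median was 0.06, or -0.11 after centring. EIF2S3 measured 164 ± 12.3 TPM in Clover and 192 ± 9.89 TPM in Z18trunc, EIF2B4 measured 69.8 ± 1.97 and 73.7 ± 1.39 TPM, and the log2 difference of EIF2S2 was -0.03.

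A list of 9 regulators was tested, 8 of them transcription factors and the ninth ERN1, the ER sensor IRE1. At an unadjusted p under 0.05, 4 were higher in Z18trunc, the transcription factors ATF3, CEBPG and ATF6 (3 of 8) and ERN1, named here after their values were seen. Over all genes the shares at that threshold were 25.6% higher and 2.90% lower, and they also stand beside the list counts below. After centring these shares were 10.2% and 18.5%, and list counts are not given on that scale. The median log2 difference of the 9 regulators was 0.35, or 0.19 after centring. The most abundant were CEBPB (199 ± 11.4 and 221 ± 16.9 TPM, SD, n = 3), ATF5 (134 ± 17.1 and 139 ± 11.2 TPM) and NFE2L2 (46.8 ± 5.56 and 61.8 ± 12.2 TPM). Genes of amino acid synthesis stood closer to the whole table, with 2 of 12 higher at that threshold and a median of 0.04, or -0.12 after centring. Among them SHMT2, the most abundant, had a log2 difference of -0.05 with overlapping groups, and the serine synthesis enzyme PSAT1 measured 445 ± 50.4 TPM in Clover and 540 ± 25.1 TPM in Z18trunc without overlap (log2 difference 0.28, limma adjusted p = 0.126, centred 0.12). PHGDH, the first enzyme of the same route, measured 439 ± 23.5 and 405 ± 6.76 TPM, lower without overlap (log2 difference -0.12, limma adjusted p = 0.335, centred -0.28). Of the 12 genes, 2 were higher and 2 lower without overlap, beside 30.1% and 6.73% of all genes. Amino acid transporters had 2 of 8 higher at an unadjusted p under 0.05 and a median of 0.18, or 0.01 after centring. The log2 differences of the most abundant transporters were -0.03 for SLC1A5, 0.07 for SLC7A5 and 0.03 for SLC3A2, each with overlapping groups. Cytosolic aminoacyl-tRNA synthetases had 8 of 20 and a median of 0.17, or 0.0025 after centring. Of the most abundant synthetases, MARS1 and SARS1 overlapped between the groups, with log2 differences of 0.10 and 0.03, and GARS1 did not overlap, at 341 ± 30.6 and 426 ± 43.8 TPM. Among 11 other ATF4 targets, 4 were higher at that threshold and the median was 0.36, or 0.19 after centring. The most abundant of these, the translation inhibitor EIF4EBP1, measured 376 ± 33.6 and 367 ± 19.7 TPM.

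A list of 20 ER genes holds chaperones, factors of ER-associated degradation (ERAD), the translocon subunit SEC61B and the vesicle coat gene SEC24D. Of these, 7 were higher in Z18trunc (SEC24D among them) and 1 lower at that unadjusted threshold, beside 25.6% and 2.90% of all genes, and the median was 0.10, or -0.06 after centring. The most abundant were CALR at 694 ± 25.3 and 682 ± 35.2 TPM (SD, n = 3), SEC61B at 341 ± 14.7 and 322 ± 17.4 TPM, and PDIA6 at 308 ± 17.4 and 329 ± 7.96 TPM. The heat shock genes, which answer to unfolded protein outside the ER, are cytosolic except for the mitochondrial chaperones HSPD1 and HSPE1. Of these 11, 2 were higher (HSP90AB1 and HSPD1) and 2 lower (HSPA1A and HSPA1B), with a median of -0.02, or -0.18 after centring. HSPA1A and HSPA1B had close levels in every library, such as 215 and 218 TPM in the third Clover library. Whether their fragments were told apart was not tested. Genes of p53, a separate stress pathway that shares SESN2 and DDIT4, had 3 of 10 higher and a median of 0.27, which was 0.08 after quantile normalization and 0.10 after centring. Hypoxia genes had 2 of 8 higher, 1 lower and a median of 0.19, or 0.02 after centring. CEBPG stands in both the list of regulators and the ATF4 target list. The eIF2 kinases and phosphatase had the highest median of these lists on the quantile scale (0.26) and on the centred scale (0.21).

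**Figure D4:**
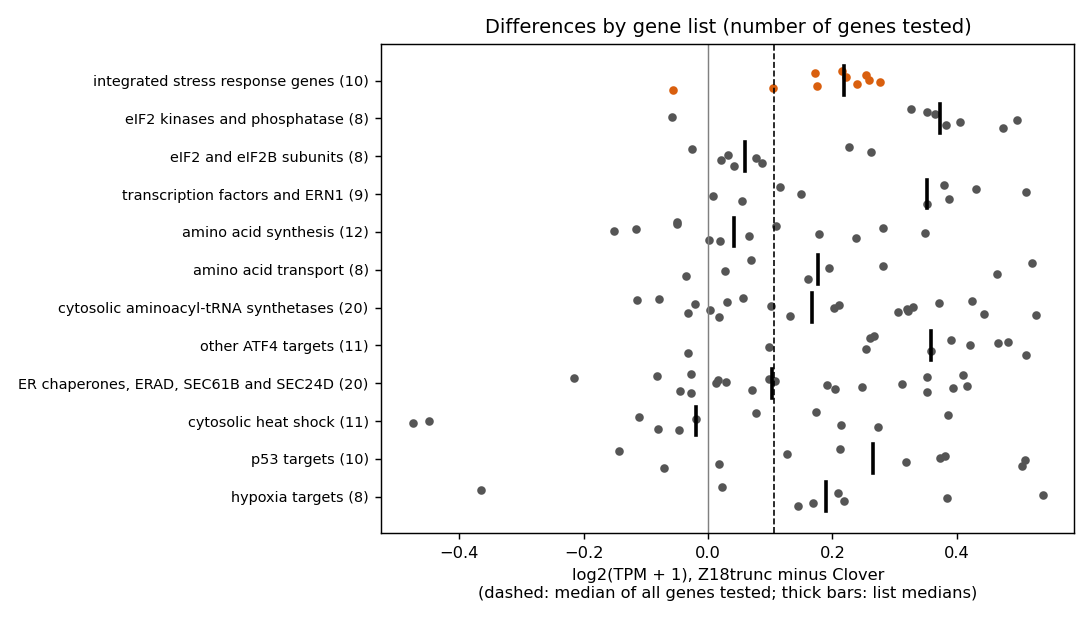
Difference between the groups in log2(TPM + 1), Z18trunc minus Clover, for every tested gene of each list, with a thick bar at the list median and a dashed line at the median of all genes tested (0.11). The integrated stress response genes (orange) run from -0.06 to 0.28, around a median of 0.22, while the eIF2 kinases and phosphatase have a median of 0.37. The list labelled cytosolic heat shock also holds the mitochondrial chaperones HSPD1 and HSPE1.

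The elements printed above allow the members to be set beside the other genes that hold them. Of the genes tested, 16 held the ER stress element. HSPA5, XBP1, HSP90B1, CALR, CANX, PDIA6, CRELD2 and ERO1B are members or stand in the list of ER genes. The others, ALG12, EIF2A, FICD, SERP1, SYNPO, TMEM120A, TRIM5 and ZNF17, stand in no list used here. The median log2 difference over the 16 was 0.16, with 9 genes higher and 0 lower without overlap. Of 253 tested genes with the composite core, ASNS and CHAC1 included, the median was 0.19, and 103 were higher and 8 lower without overlap. The core TGACGTG, which no member held, gave similar values: over 335 tested genes the median was 0.18, with 125 higher and 19 lower without overlap. The median over all 10069 tested genes with a promoter sequence was 0.11. Over all 13300 genes tested, with or without such a sequence, 30.1% were higher and 6.73% lower without overlap. These motif values are given only without centring, where the Z18trunc libraries have the higher medians.

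A readout that the choice of genes did not use comes from the transposable element (TE) tables, which count fragments at single TE copies and on each strand. Fragments that lie in a TE inside a gene and on its strand can belong to introns or untranslated ends of the gene's own transcripts. In all, 209 such TE loci lay inside 8 members, while ATF4 and DDIT4 held none. Their sum was 74.8, 64.9 and 53.1 counts per 1000000 aligned fragments (CPM) in Clover and 68.5, 78.4 and 69.2 CPM in Z18trunc. The groups overlapped (log2 ratio 0.16, exact two-sided permutation p = 0.4, where 3 against 3 libraries cannot go below 0.1), beside a median log2 ratio of 0.23 over the genes compared below. The log2 ratio of the sum was 0.29 without the first Clover library, where the groups did not overlap, 0.04 without the third Clover library, 0.10 without the second Z18trunc library, and 0.05 relative to all TE counts.

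Of the 6 members with at least 30 such counts, ASNS and DDIT3 were higher in Z18trunc without overlap, beside 19.4% of 10347 genes higher and 2.21% lower. ASNS had 7.42, 4.72 and 6.16 CPM in Clover and 7.62, 10.2 and 9.23 CPM in Z18trunc, a log2 ratio of 0.56 (exact permutation p = 0.1, the smallest possible), at percentile 84.2 of those genes. Outside annotated exons the groups of ASNS overlapped, with a log2 ratio of 0.48, beside a median ratio of 0.30 over 8458 genes. This stands beside a log2 difference of -0.06 in the TPM of ASNS. Inside the GENCODE span of ASNS the 24 loci held 119, 37 and 87 counts in Clover and 132, 156 and 150 counts in Z18trunc. These raw counts did not overlap between the groups, and the second Clover library was the lowest there too. The ratios of 0.56 and 0.48 pool these loci with the others in the longer span, and no ratio is given for the 24 alone. The remaining 76 loci lie upstream, in the longer span that the deposited tables give to ASNS, and held 47.8, 53.3 and 34 counts in Clover and 39.1, 30 and 43.9 in Z18trunc, with overlapping groups. GENCODE places 7 other genes over this span, among them RPS3AP29 and SNRPCP9, and the part of their transcripts in these counts was not tested.

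DDIT3 had 8.15, 9.20 and 8.61 CPM in Clover and 9.80, 10.3 and 9.43 CPM in Z18trunc (log2 ratio 0.18, exact permutation p = 0.1), below the median ratio of 0.23 over the 10347 genes. Outside exons the log2 ratio was 0.26, again without overlap and below the median of 0.30, beside 18.3% of genes higher on that measure. DDIT3 overlaps MARS1, MIR616 and a gene without a symbol in GENCODE, and the libraries were stranded. TRIB3 had the most TE fragments, at 42.9 ± 10.5 CPM in Clover and 46.6 ± 3.71 CPM in Z18trunc (SD, n = 3), with overlap. Most came from 1 L2a copy (hg38, chromosome 20, 396844 to 396962) within an annotated exon and untranslated region of TRIB3, with 35.2 ± 7.55 and 36.8 ± 3.49 CPM. The third Clover library was the lowest both there, at 26.5 CPM, and in the TPM of TRIB3. HSPA5, SESN2 and XBP1 had log2 ratios of -0.03, -0.11 and 0.24 with overlapping groups. CHAC1 and PPP1R15A held only 26 and 28 such counts over the 6 libraries and were not compared.

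**Figure D5:**
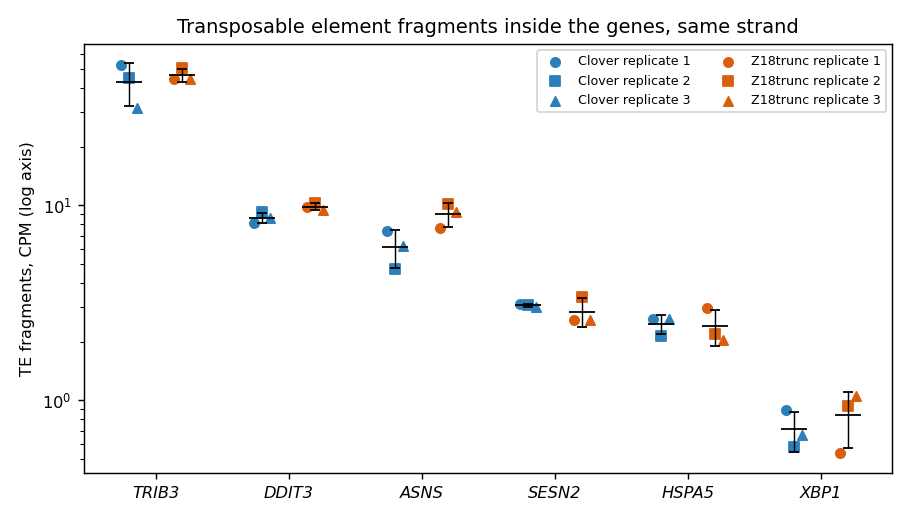
Fragments at TE copies inside each gene and on its strand, as CPM on a log axis, in 3 Clover (blue) and 3 Z18trunc (orange) libraries, for the 6 genes with at least 30 counts, with black bars at the mean ± SD (n = 3). The groups do not overlap for DDIT3 and ASNS and overlap for TRIB3, SESN2, HSPA5 and XBP1.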

How the data were processed

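PolyA-selected, stranded, paired-end RNA-seq of 6 SW480 libraries was used, with groups and replicate numbers from the sample titles. The authors trimmed reads (cutadapt 4.6, per the submitters' processing notes), mapped them to hg38 and ran SQuIRE on TE loci. The deposited gene tables give TPM in the layout of StringTie, which the study's methods name with a version only for another experiment, so the version behind these tables is not given in the sources used here. The deposited TE tables give uniquely mapped counts and an estimated count in which multiply mapped fragments are shared out, and neither is normalized.

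TPM was summed by Gene ID. For genes with a mean of at least 1 TPM, limma 3.58.1 (R 4.3.3) was fitted to log2(TPM + 1), with Benjamini-Hochberg adjustment over all 13300 genes, and differences on this scale understate those of low genes. On simulated data for Z18trunc against Clover over 13300 genes, 84% of genes changed by 1 on the log2 scale were recovered, and 7.69% of calls were false. The largest difference of a member was 0.28, so this share does not tell how often changes of the members' size would be called. The simulated libraries had no shift of their medians. TE fragments were summed over loci inside each gene, as estimated counts over aligned fragments, and compared with exact two-sided permutation tests. A locus sum of 0 is compatible with up to 3 counts (0.134 to 0.165 CPM). Such limits cover counting error only.

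The genes, the pathway lists and the tests were chosen with earlier results of these data known. Named genes were the 10 members, ZC3H18, the 3 most abundant genes of a list (not all printed) and the 3 genes closest to ATF4, DDIT3 and HSPA5. One gene that this rule names is not reported here. All tested holders of the ER stress element were named, and of the composite core only the members were named as holders. ATF3, CEBPG, ATF6, ERN1, EIF2AK2, EIF2AK3, EIF2AK4, SEC24D, HSPD1, HSPA1A and HSPA1B were named after their values were seen. Markers listed at 0 were named as such. HSPE1 was named for its place in the cell. The list of mitochondrially encoded mRNAs matched no symbol and was not used here. Within a group, libraries varied beyond counting noise (chi-square per degree of freedom 1.68 to 2.10 over 9118 TE loci). Alternatives were another pseudocount, other filters, quantile normalization, median centring, an intensity trend, a replicate block, and leaving out each library.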

Additional observations from a re-analysis of the deposited data

Results flagged for a closer look

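Fragments at TE copies on the strand opposite to ASNS lie outside the comparisons above and were higher in Z18trunc. They measured 0.111, 0.157 and 0.255 CPM in Clover and 0.271, 0.567 and 0.286 CPM in Z18trunc, with means of 0.174 and 0.375 CPM. The groups did not overlap (exact two-sided permutation p = 0.1, the smallest possible), but the counts were few, at 2.5 to 5 in the Clover libraries and 6 to 10.3 in the Z18trunc libraries, and 2 Clover libraries lay at or under the 3 counts that a count of 0 allows. The share of all genes without overlap on the opposite strand is not given, so the values are not read as a trait of ASNS. Summed over 4 TE classes and both strands, fragments averaged 47022 CPM in Clover and 53253 CPM in Z18trunc, a log2 ratio of 0.18. The part of other genes that GENCODE places over the span given to ASNS was not tested.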

How the results depend on the processing

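In each of 13 alternatives, 0 members had an adjusted p under 0.05, and 128 of 130 member values kept their sign and their side of the threshold. The lowest adjusted p was 0.0742, for HSPA5 under an intensity trend in limma. The 2 values that changed sign were ATF4 after median centring (-0.0595) and ASNS without Clover replicate 1 (0.0599, range -0.164 to 0.0599 over the left-out libraries). Over all genes, calls numbered 2, but 60 with an intensity trend, 474 with a mean of at least 5 TPM, 1 each with no filter, a pseudocount of 0.1 or quantile normalization, and 1 to 4 with a library left out (4 without Clover replicate 2, 1 without Z18trunc replicate 1). Members at an unadjusted p under 0.05 numbered 3, but 5 with an intensity trend, 0 after centring, and 0 to 6 with a library left out. For that threshold the share of all genes is given only for the main, quantile and centred fits. Genes of the pathway lists called numbered 0, but 1 with an intensity trend and 4 with a mean of at least 5 TPM (PPP1CC, CEBPG, ATF6 and EIF2AK4). Centring lowered the median over the members from 0.22 to 0.0544 and the log2 difference of the summed ATF4 targets from 0.13 to -0.0326. The cause of these shifts was not tested. A stricter filter also leaves fewer genes to test, and the part of this in the number of calls was not tested.

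The groups share replicate numbers, but deviations of same-numbered libraries correlated at -0.036, 0.017 and -0.037 across genes. The libraries were treated as unpaired, although such values cannot settle whether same-numbered lines were made together. With a replicate block, limma called 1 gene and 0 members, and 1 member was at an unadjusted p under 0.05. TPM keeps no depth, so the counting error behind each level is unknown.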
